A study of Mus musculus with 64 samples.

Results

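Colon of specific pathogen free (SPF) mice taken at ZT17 after vancomycin was compared with colon taken at the same hour after PBS. The members are 8 libraries of the 64 in the series, 4 from vancomycin-treated and 4 from PBS-treated mice, chosen by their labels for housing, treatment and hour. ZT is zeitgeber time, in hours from lights on, and ZT17 falls in the dark phase, when mice feed. All were wild type Swiss Webster mice, an outbred laboratory stock, 8 to 12 weeks old and fed standard chow under 12 h of light and 12 h of dark. Vancomycin mice had intraperitoneal injections of 2.5 mg of the drug in 100 µl of PBS, and PBS mice had 100 µl of PBS on the same schedule, 2 a day for 3 days and a last one on day 4. The other libraries are SPF colon at ZT5, ZT11 and ZT23 and colon of germ-free (GF) mice, raised without microbes. The study's title asks which effects of antibiotics on gut immunity do not need the microbiota. The labels give no litter, cage or family, and they do not say that each library is a separate animal, so each p reflects spread between libraries, which may be technical.

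Vancomycin acts on Gram-positive bacteria, whose cell wall it keeps from being built. The colon epithelium meets a dense microbiota through a mucus layer, into which goblet and other secretory cells release lectins, pentraxins and antimicrobial proteins. Epithelial and immune cells sense microbes through receptors and inflammasomes and answer with interferons, chemokines and antigen presentation. Because whole colon was used, fewer cells of a type and less RNA per cell cannot be told apart.

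Totals in the 8 libraries were 11129316 to 13342573 estimated counts, and log2 levels of replicates correlated across genes at r of 0.961 to 0.979 in vancomycin and 0.971 to 0.979 in PBS libraries. Levels are given as CPM, the count per 1000000 counts of the library, scaled by its TMM factor. Colonic epithelium was present in all 8, with the colonocyte carbonic anhydrase Car4 at 1104 to 1537 CPM in vancomycin libraries and 648 to 1454 CPM in PBS libraries, and 4 Y-linked genes were at 29.5 CPM or more in each. Marker lists gave differences within the groups, as means of log2(CPM + 1). B cell and follicle markers (20 of 20 tested) stood at 5.15, 5.50, 3.8 and 2.37 in vancomycin replicates 1 to 4 and at 4.29, 4.52, 3.87 and 3.88 in PBS replicates 1 to 4, so vancomycin replicates 1 and 2 were rich in lymphoid follicle. Markers of fat and mesothelium (17 of 17 tested) stood at 1.84 to 2.52 in vancomycin libraries and at 1.86 to 3.83 in PBS libraries. Pancreas markers were below the filter, with 0 of 11 tested. PBS replicate 4 held some genes of small intestine, with the ileal bile acid carrier Fabp6 at 48.5 CPM and the apolipoprotein Apoa1 at 180 CPM. The other 3 PBS libraries held at most 2.90 and 0.263 CPM, and vancomycin libraries at most 2.76 CPM of Fabp6. Of small intestinal genes below the filter, Fabp1, Apoc3 and Lct had at most 3, 5 and 4 counts in any of the 8 libraries, whereas Sis and Treh reached 622 and 43.

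Of 16938 genes tested, 54 (0.319%) differed between vancomycin and PBS at ZT17 by edgeR's quasi-likelihood test with Benjamini-Hochberg adjustment, 22 higher (0.13%) and 32 lower (0.189%). By GENCODE type, 46 were protein coding, 7 were processed pseudogenes and 1 was an unprocessed pseudogene, and 37 differed by more than 1 on the log2 scale. Over all genes tested the median log2 fold change was -0.0004 and 49.89% were positive, values that the TMM scaling itself brings close to 0 and to an even split. The 4 vancomycin and 4 PBS libraries did not overlap for 20 of the 22 higher genes and 30 of the 32 lower genes. Over all genes tested, groups that did not overlap made up 2.56% in the higher direction and 3.33% in the lower. Without the follicle-rich vancomycin replicates 1 and 2 the number called fell to 17, of which 11 were among the 54, and without vancomycin replicate 1 alone it fell to 21.

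**Figure D1:**
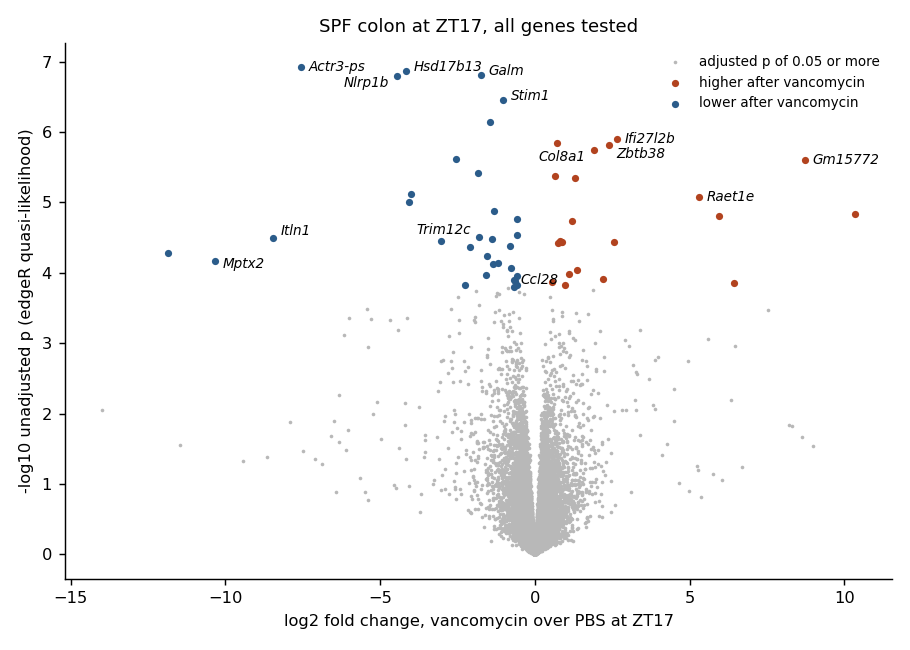
Each point is 1 of 16938 genes, with its log2 fold change of vancomycin over PBS at ZT17 on the x axis and -log10 of the unadjusted edgeR p on the y axis. Red points are the 22 genes called higher after vancomycin, blue points the 32 called lower and grey points those with an adjusted p of 0.05 or more.

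The genes of a pair of secreted defence proteins, Itln1 and Mptx2, were lower after vancomycin. Itln1 encodes intelectin, a goblet and Paneth cell lectin that binds sugars of microbial surfaces. It had 2.24, 2.35, 2.09 and 2.08 CPM in vancomycin libraries and 2574, 396, 152 and 4.60 CPM in PBS libraries, which is -8.47 ± 1.70 as a log2 fold change with its SE (adjusted p = 0.0196, edgeR). Mptx2, a mucosal pentraxin known from mouse Paneth cells, had 0, 0.0838, 0.585 and 0.173 CPM in vancomycin libraries and 974, 90.1, 78.6 and 1.01 CPM in PBS libraries (-10.35 ± 2.20, adjusted p = 0.0303). The vancomycin libraries were all low and alike, whereas the PBS libraries were spread out, with replicate 1 at the top and replicate 4 close to the vancomycin level. Gm9765, the tested gene next to Itln1, followed it in PBS libraries at 372, 61.6, 26.4 and 0.078 CPM, and held 1 read in the 4 vancomycin libraries together. Both Itln1 and Mptx2 kept their call in only 3 of 8 fits that left out 1 library. They lost it without PBS replicate 1 or any 1 of the vancomycin libraries, with adjusted p up to 0.1 for Itln1 and 0.133 for Mptx2 and log2 fold changes of -8.89 to -6.38 and -11.57 to -8.01.

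These were the 2 called members among 28 tested genes of a list of antimicrobial genes, whose median log2 fold change was 0.01, and among 16 tested genes of a Paneth and small intestine list, whose median was -0.85. The median of the Paneth and small intestine list rests on single PBS libraries, at 0.23 without PBS replicate 4 and -0.19 without PBS replicate 1. It was 0.03 with a filter at 50 or limma-voom and 0.04 with the replicate block. With no filter it was -1.86, over 31 genes, and without vancomycin replicate 2 it was -1.08. Other members did not pass the test, and for Ang4 and Reg3b 1 PBS library stood far above the rest. The antimicrobial ribonuclease Ang4 had 97.3, 166, 42.6 and 61.4 CPM in vancomycin libraries and 1239, 34.7, 43.1 and 19.3 CPM in PBS libraries. The secreted C-type lectin Reg3b, an antibacterial protein of the gut epithelium, had at most 6.86 CPM in vancomycin libraries. It had 183 CPM in PBS replicate 4, the library high in Fabp6 and Apoa1, against at most 0.176 CPM in the other PBS libraries. The related pentraxin Mptx1 was abundant throughout, at 4309, 4278, 3137 and 3044 CPM in vancomycin libraries and 3810, 2143, 1202 and 1977 CPM in PBS libraries (0.69, adjusted p = 0.617). The Paneth cell defensin genes of the list and their processing protease Mmp7 were below the filter and were not tested.

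**Figure D2:**
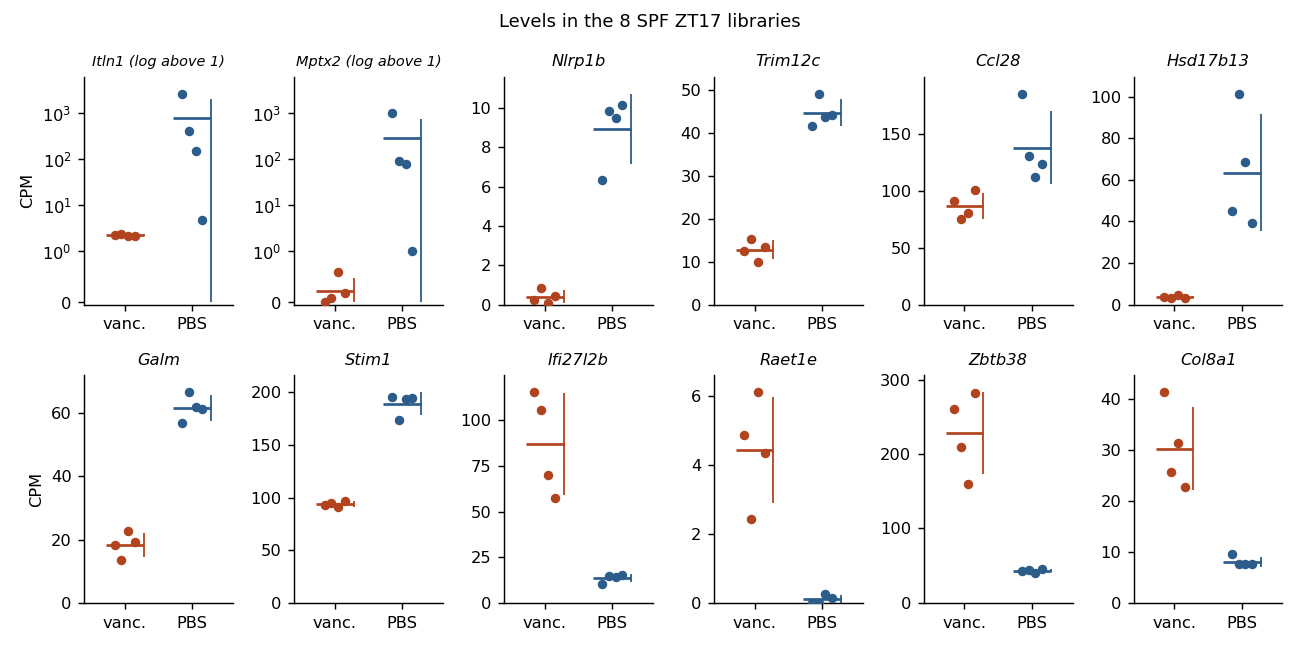
Levels of 12 called genes in CPM, 4 vancomycin libraries in red on the left and 4 PBS libraries in blue on the right of each panel, with the mean as a horizontal line and the SD as a vertical line. The Itln1 and Mptx2 axes are logarithmic above 1 CPM. Itln1 and Mptx2 varied widely between PBS libraries, whereas Stim1, Galm and Trim12c formed 2 tight groups.

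Among sensors of microbes, the inflammasome gene Nlrp1b was lower. Nlrp1b detects microbial proteases, such as anthrax lethal factor, and activates caspase-1. It had 0.239, 0.838, 0.0836 and 0.434 CPM in vancomycin libraries and 6.32, 9.84, 9.49 and 10.1 CPM in PBS libraries (-4.46 ± 0.64, adjusted p = 6.84e-04), with 10 reads or fewer in each vancomycin library. It was the 1 called gene of 20 tested inflammasome genes, of which 4 had a positive log2 fold change (median -0.22, and -0.12 without vancomycin replicate 2). The next by p, the epithelial viral sensor gene Nlrp9b, differed by -0.55 (adjusted p = 0.477), and Gsdmd, the pore-forming target of caspase-1, by -0.30 (adjusted p = 0.599). Trim12c and Trim68, ubiquitin ligases of the tripartite motif family, were lower as well. Trim12c, a relative of the antiviral restriction factor Trim5, had 12.5, 15.3, 10 and 13.4 CPM in vancomycin libraries and 41.7, 49.1, 43.8 and 44.2 CPM in PBS libraries (-1.80 ± 0.36, adjusted p = 0.0196). Trim68 had 4.87, 4.44, 5.02 and 3.56 CPM in vancomycin libraries and 10.9, 14.3, 9.14 and 11.9 CPM in PBS libraries (-1.37 ± 0.29, adjusted p = 0.0314). The other 10 tested genes of the Trim list did not pass, and the median of the list was 0.22. Trim12c lost its call without PBS replicate 2 or any 1 vancomycin library (-1.90 to -1.69, adjusted p up to 0.086), and Trim68 lost it without any 1 library but PBS replicate 3 (-1.46 to -1.24, adjusted p up to 0.107).

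Immune ligands and effectors moved in both directions. The interferon-inducible Ifi27l2b had 115, 105, 70.1 and 57.2 CPM in vancomycin libraries and 10.6, 14.8, 14.1 and 15.3 CPM in PBS libraries (2.66 ± 0.43, adjusted p = 0.00288). Raet1e, a ligand of the activating receptor NKG2D on natural killer and T cells, had 4.87, 2.43, 6.10 and 4.34 CPM in vancomycin libraries and 0, 0, 0.264 and 0.156 CPM in PBS libraries (5.29 ± 0.97, adjusted p = 0.00841). It was on in every vancomycin library and at 3 reads or fewer in every PBS library. Ccl28, an epithelial chemokine that draws IgA-secreting plasma cells to mucosa, had 91.1, 75.0, 80.9 and 101 CPM in vancomycin libraries and 185, 131, 112 and 124 CPM in PBS libraries (-0.67 ± 0.15, adjusted p = 0.0495). Ccl28 was the 1 called gene of 37 tested cytokines and chemokines (median 0.25), and it kept its call in 1 of 8 fits that left out 1 library, with adjusted p up to 0.229. Cxcl9, which attracts T cells through Cxcr3 and is induced by interferon gamma, had 5.35, 4.69, 7.02 and 2.34 CPM in vancomycin libraries and 0.439, 1.31, 0.703 and 0.78 CPM in PBS libraries without passing (2.56, adjusted p = 0.361). Ifi27l2b and Raet1e kept their call without each library in turn. Ifi27l2b lost it without the follicle-rich pair (2.2, adjusted p = 0.0788) and with the replicate block (adjusted p = 0.0582, edgeR). Raet1e lost it with the replicate block (adjusted p = 0.0601, edgeR) and with limma-voom (adjusted p = 0.149).

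Interferon response genes other than Ifi27l2b leaned higher without passing the test. Of 46 tested interferon-stimulated genes, 1 was called and 42 had a positive log2 fold change, with a median of 0.32, whereas over all genes 49.89% were positive. Of 17 tested interferon-induced GTPases, which coat the vacuoles of intracellular microbes, 0 were called and 14 were positive, with a median of 0.72. Irgm2 had 34.6, 72.6, 46.9 and 28.4 CPM in vancomycin libraries and 15.7, 21, 19 and 21.2 CPM in PBS libraries (1.25 ± 0.33, adjusted p = 0.125). Igtp had 31, 50.3, 32 and 14.4 CPM in vancomycin libraries and 11.9, 12.2, 11.9 and 12.6 CPM in PBS libraries (1.39 ± 0.43, adjusted p = 0.237). For both genes each vancomycin library was above each PBS library, and the follicle-rich replicate 2 was the highest. MHC class I genes (20 tested, 0 called, 17 positive) had a median of 0.33. The immunoproteasome subunit Psmb9 had 41.7, 66.9, 41.6 and 33.4 CPM in vancomycin libraries and 23.8, 25.4, 26.6 and 25.1 CPM in PBS libraries (0.86, adjusted p = 0.187). MHC class II genes (11 tested, 0 called, 10 positive) had a median of 0.83, and H2-Ab1 had 307, 569, 129 and 139 CPM in vancomycin libraries and 109, 138, 115 and 138 CPM in PBS libraries. Without vancomycin replicates 1 and 2, the median was -0.38 for class II, 0.17 for the GTPases, 0.23 for class I and 0.35 for the interferon-stimulated genes, and that of 26 T and natural killer cell markers was -0.86, against 0.40 with all libraries. Without vancomycin replicate 2 alone, the median was 0.31 for class II, 0.40 for the GTPases and -0.12 for the T and natural killer cell markers.

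The promoters of Irgm2 and Igtp are shown with that of Trim12c, since all 3 hold a motif of interferon-regulated genes while Trim12c was lower and the GTPases leaned higher. Each is 300 bases of RefSeq sequence on build GRCm38.p6, from 250 bases before to 50 after the gene start, 5′ to 3′ on the gene's strand. Capitals mark a core of the interferon-stimulated response element, which is GAAA, 2 bases of any kind and GAAA again (TTTC, 2 bases and TTTC when read on the other strand), and TTCNNNGAA, a STAT site core, which is its own reverse complement. The matches in a promoter do not overlap. The position of the first base relative to the gene start is -64 and -75 in Irgm2 (chr11:58214727-58215026, + strand), -34 and -45 in Igtp (chr11:58199306-58199605, + strand) and -29 for the 1 match in Trim12c (chr7:104353300-104353599, - strand).
Irgm2: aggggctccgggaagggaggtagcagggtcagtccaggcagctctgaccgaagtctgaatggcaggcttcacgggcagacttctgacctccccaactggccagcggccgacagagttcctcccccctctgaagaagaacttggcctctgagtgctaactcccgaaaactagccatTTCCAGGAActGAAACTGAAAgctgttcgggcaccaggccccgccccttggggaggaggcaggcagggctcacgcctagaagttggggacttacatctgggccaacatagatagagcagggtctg
Igtp: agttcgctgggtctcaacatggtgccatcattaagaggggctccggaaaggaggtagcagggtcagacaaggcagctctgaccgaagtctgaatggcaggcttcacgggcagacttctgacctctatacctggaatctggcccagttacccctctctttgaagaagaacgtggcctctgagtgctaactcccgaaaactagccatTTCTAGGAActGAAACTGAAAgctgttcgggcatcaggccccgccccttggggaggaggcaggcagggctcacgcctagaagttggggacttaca
Trim12c: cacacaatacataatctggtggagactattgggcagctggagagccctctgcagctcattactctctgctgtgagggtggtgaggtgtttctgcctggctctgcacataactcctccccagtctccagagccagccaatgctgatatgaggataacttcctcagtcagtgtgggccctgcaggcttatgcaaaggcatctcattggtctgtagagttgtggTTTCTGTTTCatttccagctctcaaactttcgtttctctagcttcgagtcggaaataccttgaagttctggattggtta
Over 32851 promoters of this length, 3.44% held the first motif, 8.3% the second and 0.454% both. Of the 63 tested genes of the interferon lists, 41 had a promoter in the RefSeq table, and of their 48 promoters 56.2% held the first motif, 27.1% the second and 18.8% both. A match describes letters in this window and is not evidence of binding.

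Metabolic enzymes were called in both directions. Hsd17b13, a lipid droplet retinol dehydrogenase best known from liver, had 3.59, 2.93, 4.43 and 3.30 CPM in vancomycin libraries and 45.1, 101, 68.6 and 39.2 CPM in PBS libraries (-4.15 ± 0.59, adjusted p = 6.84e-04). Galm, which converts the forms of galactose for the Leloir pathway, had 18.2, 13.4, 22.6 and 19.1 CPM in vancomycin libraries and 56.6, 66.4, 61.8 and 61.0 CPM in PBS libraries (-1.75 ± 0.25, adjusted p = 6.84e-04). Pgd, an NADPH-producing enzyme of the pentose phosphate pathway, had 194, 199, 274 and 301 CPM in vancomycin libraries and 122, 163, 117 and 145 CPM in PBS libraries (0.82 ± 0.17, adjusted p = 0.0196). Nmnat1, which makes NAD in the nucleus, averaged 12.5 ± 2.30 CPM in vancomycin libraries and 20 ± 4.40 CPM in PBS libraries (SD, n = 4 each; -0.68 ± 0.15, adjusted p = 0.046, edgeR). Hnf4g, a nuclear receptor of enterocyte genes, averaged 23.7 ± 2.15 CPM in vancomycin libraries and 35.6 ± 5.48 CPM in PBS libraries (SD, n = 4 each; -0.58 ± 0.13, adjusted p = 0.0413, edgeR). Hsd17b13 and Galm kept their call in every alternative that was tried. Pgd lost its call without PBS replicate 1 or 3 or vancomycin replicate 3 or 4 (0.71 to 0.92, adjusted p up to 0.0959), and Nmnat1 and Hnf4g kept theirs in 2 and 1 of the 8 fits without 1 library.

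Called genes also included a calcium sensor, a receptor, a transcriptional repressor and a collagen. Stim1, the calcium sensor of the endoplasmic reticulum that opens store-operated channels, had 92.7, 94.4, 91.0 and 97.0 CPM in vancomycin libraries and 195, 173, 194 and 195 CPM in PBS libraries (-1.01 ± 0.15, adjusted p = 0.00118). Ldlrad3, a receptor of the LDL receptor class, had 19, 16.2, 20.1 and 23.8 CPM in vancomycin libraries and 45.6, 58.5, 58.9 and 54.7 CPM in PBS libraries (-1.46 ± 0.23, adjusted p = 0.00201). Zbtb38, a zinc finger repressor that binds methylated DNA, had 261, 209, 160 and 282 CPM in vancomycin libraries and 43.5, 44.1, 40.2 and 45.5 CPM in PBS libraries (2.40 ± 0.39, adjusted p = 0.00288). Col8a1, a short-chain collagen, had 41.3, 25.7, 31.3 and 22.7 CPM in vancomycin libraries and 9.56, 7.53, 7.64 and 7.65 CPM in PBS libraries (1.90 ± 0.31, adjusted p = 0.00304). It was the 1 called gene of 30 tested extracellular matrix genes, whose median was -0.03. All 4 kept their call without each library in turn, with Stim1 and Zbtb38 also called in every alternative.

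Further called genes had a range of functions and sizes. Tmed5, a cargo receptor of the early secretory pathway, averaged 45.6 ± 3.6 CPM in vancomycin libraries and 29.2 ± 1.85 CPM in PBS libraries (SD, n = 4 each; 0.64 ± 0.11, adjusted p = 0.00502, edgeR). Miga1, which promotes mitochondrial fusion, averaged 535 ± 78.7 CPM in vancomycin libraries and 294 ± 35.4 CPM in PBS libraries, and the ribosomal RNA processing factor Utp11 averaged 81.0 ± 9.99 CPM in vancomycin libraries and 48.1 ± 3.35 CPM in PBS libraries. The splicing regulator Hnrnpll averaged 40.4 ± 2.30 CPM in vancomycin libraries and 59.8 ± 5.03 CPM in PBS libraries, and the ubiquitin ligase subunit Wsb1 averaged 134 ± 8.08 CPM in vancomycin libraries and 200 ± 24.4 CPM in PBS libraries. Adjusted p was 0.0134 to 0.0196 for these 4 genes by edgeR, and each kept its call in 3 to 5 of 8 fits without 1 library. Lrrc31 was lower at 6.21 ± 1.69 CPM in vancomycin libraries, against 22.2 ± 1.90 CPM in PBS libraries (SD, n = 4 each; adjusted p = 0.00495, edgeR). Khdrbs2, an RNA-binding protein gene, was at 0.299 ± 0.387 CPM in vancomycin libraries, against 5.11 ± 1.40 CPM in PBS libraries (adjusted p = 0.00943, edgeR), and lost its call without vancomycin replicate 1 or 2 (adjusted p up to 0.0633). Insl6, of the relaxin family, was at 0.168 ± 0.119 CPM in vancomycin libraries, against 1.45 ± 0.351 CPM in PBS libraries (adjusted p = 0.0196, edgeR), and lost its call without PBS replicate 4 or vancomycin replicate 1, 2 or 4 (adjusted p up to 0.111). Higher genes also included Cep85, Cnbd2, Fyb2, Zfp605, Prkrip1 and Arid5b, at log2 fold changes of 0.57 to 2.54, and Arid5b overlapped between the groups. Each of these higher genes kept its call in 1 to 6 of 8 fits without 1 library. The lower genes Adgra3, Itih5, Ankrd50, Bin3, P4ha3, Morn2 and Pik3c2b had log2 fold changes of -2.27 to -0.58, and Pik3c2b overlapped between the groups. Each of these lower genes kept its call in 1 to 4 of 8 such fits.

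Several called genes have close copies in the genome, so their values may depend on how reads were shared out, which was not tested. Words of 31 bases from the GENCODE transcripts of each gene were searched in the transcripts of all other genes. At least 50% of the words were shared for 9 of 53 called genes with transcripts (17%), against 1512 of 16897 tested genes (8.95%). Of the called genes, 3 pairs of opposite sign shared words, and their partners were looked up after the values were seen. The ribosomal protein gene Rpl26 had 149, 152, 149 and 152 CPM in vancomycin libraries and 369, 398, 351 and 393 CPM in PBS libraries (-1.33 ± 0.25, adjusted p = 0.0119). Gm15772, a pseudogene that shares 84.8% of its words with Rpl26, had 235, 228, 249 and 216 CPM in vancomycin libraries and 0.79, 0.461, 0.351 and 0.546 CPM in PBS libraries (8.73, adjusted p = 0.00358). Their sums were 384, 379, 399 and 368 CPM in vancomycin libraries and 369, 398, 351 and 393 CPM in PBS libraries, and the 2 groups of sums overlapped. The polyubiquitin gene Ubb and its copy Gm8797 also differed in opposite directions. Ubb had 333, 298, 312 and 354 CPM in vancomycin libraries and 446, 550, 520 and 512 CPM in PBS libraries. Gm8797, which shares 85.7% of its words with Ubb, had 458, 445, 425 and 511 CPM in vancomycin libraries and 258, 305, 278 and 273 CPM in PBS libraries. The sums of Ubb and Gm8797, 791, 743, 737 and 865 CPM in vancomycin libraries and 704, 855, 797 and 785 CPM in PBS libraries, overlapped too. Ubb-ps, with which Gm8797 shares 93% of its words, did not pass the test (0.07, adjusted p = 0.876, edgeR). The sums of Gm8797 and Ubb-ps did not overlap, at 958 to 1128 CPM in vancomycin libraries and 749 to 855 CPM in PBS libraries. Those of Ubb and Ubb-ps overlapped, at 812 to 970 CPM in vancomycin libraries and 937 to 1097 CPM in PBS libraries. Rpl26 lost its call without vancomycin replicate 1 (adjusted p = 0.0533), and Ubb lost it without each of the 8 libraries in turn (adjusted p of 0.0537 to 0.166).

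For the complex I subunit Ndufs5 the sum with its copy still differed in level. Ndufs5 had 63.5, 60.5, 87.6 and 80.5 CPM in vancomycin libraries and 32.3, 33.0, 28.4 and 25.4 CPM in PBS libraries (1.29 ± 0.23, adjusted p = 0.00509). Ndufs5-ps, which shares 81% of its words with Ndufs5, had 7.42, 6.20, 9.11 and 2.52 CPM in vancomycin libraries and 28.7, 27.2, 26.4 and 25 CPM in PBS libraries (-2.08 ± 0.43, adjusted p = 0.021). The sums were 71.0, 66.7, 96.7 and 83.0 CPM in vancomycin libraries and 61.0, 60.2, 54.8 and 50.4 CPM in PBS libraries, so the groups did not overlap but lay closer than for Ndufs5 alone. Actr3-ps, a copy of the actin nucleator Actr3 that shares 67.9% of its words with it, had 0.239, 0, 0.585 and 0.26 CPM in vancomycin libraries and 49.0, 59.3, 54.4 and 51.3 CPM in PBS libraries (-7.57 ± 1.07, adjusted p = 6.84e-04). Actr3 itself had 357, 363, 437 and 381 CPM in vancomycin libraries and 250, 268, 256 and 247 CPM in PBS libraries (0.59, adjusted p = 0.0915). The sums of Actr3 and Actr3-ps did not overlap, at 357 to 437 CPM in vancomycin libraries and 298 to 327 CPM in PBS libraries. Gm10355, which shares 87.5% of its words with Rangrf, had 11.5 to 14.9 CPM in vancomycin libraries and 0 reads in the 4 PBS libraries, so it was at least 50.8-fold higher over a floor of 3 counts per library. Rangrf had 10.7 to 14.9 CPM in vancomycin libraries and 19.4 to 22.1 CPM in PBS libraries (-0.71, adjusted p = 0.176). The sums of Gm10355 and Rangrf lay far closer than Gm10355 alone, at 22.28 to 29.84 CPM in vancomycin libraries and 19.43 to 22.14 CPM in PBS libraries. Trim12c shares 38.7% of its words with Trim5, which had 17.7, 22.3, 16.5 and 16.7 CPM in vancomycin libraries and 8.95, 12.8, 10.9 and 10.1 CPM in PBS libraries (0.77, adjusted p = 0.6). Their sums, 26.5 to 37.6 CPM in vancomycin libraries and 50.6 to 62.0 CPM in PBS libraries, did not overlap. Raet1e shares 49.7% of its words with Raet1d, which was below the filter, and Mptx2 shares 25.1% with Mptx1.

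**Figure D3:**
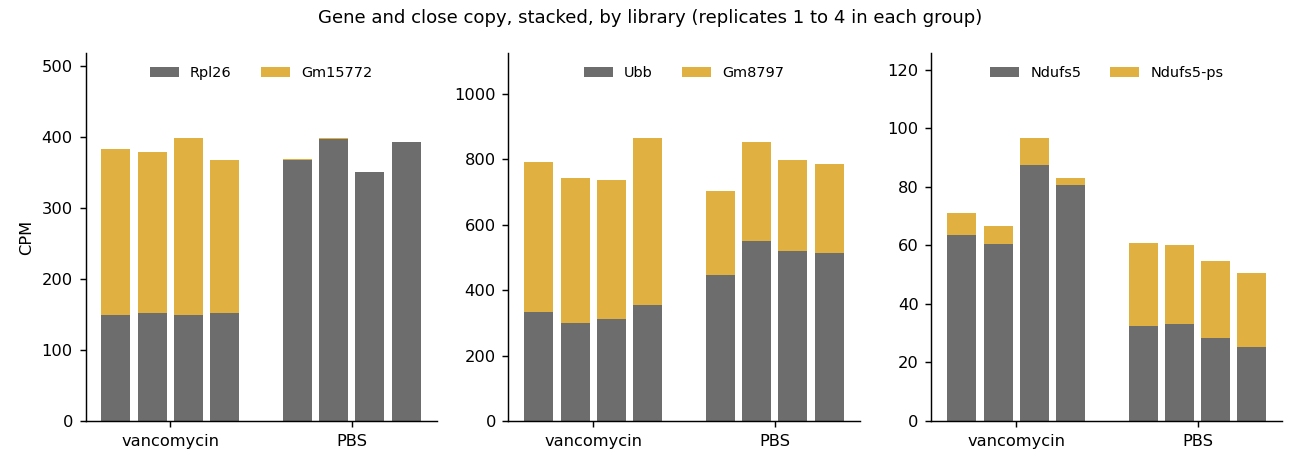
Stacked bars give the CPM of a gene (grey) and of its copy (yellow) in each library, vancomycin replicates 1 to 4 on the left and PBS replicates 1 to 4 on the right. The sums of Rpl26 with Gm15772 and of Ubb with Gm8797 overlapped between the groups, whereas the sums of Ndufs5 with Ndufs5-ps did not. Ubb-ps, which shares more words with Gm8797 than Ubb does, is not drawn.

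Some called genes lay near each other on a chromosome. Along the order of tested genes, 13 of the 54 lay within 10 tested genes of another called gene. The number for genes drawn at random was not computed, so whether 13 exceeds chance was not tested. Itln1 was next to Gm9765 and Galm next to Hnrnpll, and the others were 3 to 6 tested genes from the nearest called gene. Galm, Hnrnpll and Morn2 on chromosome 17 were all lower, as were Itln1 and Gm9765 on chromosome 1 and Stim1 and Trim68 on chromosome 7. Ndufs5 and Utp11 on chromosome 4 were both higher. Pgd and Nmnat1 on chromosome 4 and Gm8797 and Hnf4g on chromosome 3 differed in opposite directions.

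The levels that set vancomycin apart at ZT17 also occurred in PBS libraries of other hours. For the 50 called genes whose ZT17 groups did not overlap, each of the other 24 SPF libraries was placed on the vancomycin or the PBS side of the middle of the gap, on the log2(CPM + 1) scale. PBS ZT11 replicates 1, 2 and 3 lay on the vancomycin ZT17 side for 39, 44 and 42 of the 50 genes and PBS ZT11 replicate 4 for 22. The other 20 libraries did so for 3 to 25 genes, with vancomycin libraries at 3 to 23 and PBS libraries of ZT5 and ZT23 at 13 to 25. For 34 genes all of PBS ZT11 replicates 1 to 3 were on the vancomycin side, and for 17 of these PBS ZT11 replicate 4 was on the other. For 0 genes were all 12 vancomycin libraries of other hours on the vancomycin ZT17 side, and for 8 genes none was. More PBS than vancomycin libraries of the other hours were on that side for 39 of 50 genes.

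**Figure D4:**
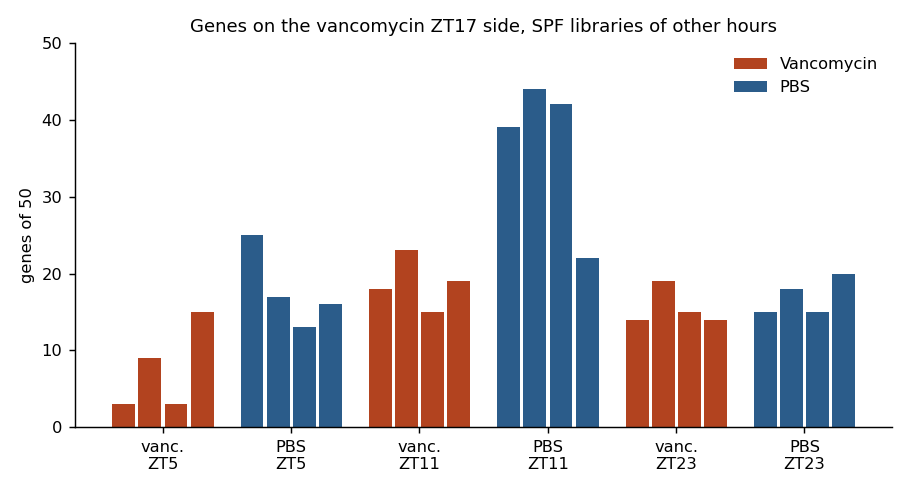
Each bar is 1 SPF library of ZT5, ZT11 or ZT23, replicates 1 to 4 from left to right within a group, and its height is the number of 50 called genes on the vancomycin ZT17 side of the gap. PBS ZT11 replicates 1, 2 and 3 stand at 39, 44 and 42, above the other 21 libraries at 3 to 25.

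Single genes showed the same pattern in their levels. At ZT11, Actr3-ps had 53.6, 33.4, 55.4 and 61.9 CPM in vancomycin libraries and 0.86, 0, 0.422 and 26.7 CPM in PBS libraries. Hsd17b13 at that hour had 51.6, 41.0, 89.4 and 39.2 CPM in vancomycin libraries and 5.76, 1.35, 9.53 and 38.0 CPM in PBS libraries. Ifi27l2b at ZT11 had 17, 19, 12.2 and 28.2 CPM in vancomycin libraries and 69.7, 56.5, 107 and 11.7 CPM in PBS libraries. For these 3 genes PBS ZT11 replicates 1 to 3 lay on the vancomycin ZT17 side and replicate 4 on the other. Nlrp1b was at 0.169 to 0.482 CPM in all 8 SPF libraries of ZT23, at 6.28 to 7.97 CPM in all 8 of ZT5, and at ZT11 at 3.36 to 7.76 CPM in vancomycin libraries and 0.344, 0.318, 0.675 and 5.41 CPM in PBS libraries. In GF mice at ZT17 it had 0.855, 0.238, 0.256 and 10.7 CPM in vancomycin libraries and 10.7, 8.55, 8.38 and 0.245 CPM in PBS libraries, so high and low libraries occurred in both groups. Trim12c was low, at 11.5 to 16.1 CPM, in PBS ZT5 replicates 1 to 3, in vancomycin ZT5 replicate 4 and in all 4 PBS ZT11 libraries, and at 43.3 CPM or more in the other 4 libraries of ZT5. Itln1 was at 9.91 CPM or less in all 4 PBS ZT11 libraries and in replicate 2 of vancomycin ZT11, of PBS ZT5 and of PBS ZT23, and at 257 CPM or more in the other 17 SPF libraries of those hours. Raet1e, near 0 in PBS ZT17 libraries, had 1.64 to 4.06 CPM in PBS libraries of ZT5 and ZT23, and was at 0 to 0.0937 CPM in vancomycin ZT5 replicates 1 and 4 and vancomycin ZT11 replicate 4. Since the labels give no litter or family, treatment and any origin shared by the mice of a group cannot be told apart here.

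Whether the difference at ZT17 departed from that at the other SPF hours was tested directly, as the ZT17 log2 fold change minus the mean of those at ZT5, ZT11 and ZT23. It did for 79 of 16938 genes (0.466%), 31 more positive (0.183%) and 48 more negative (0.283%). Among them were 45 of the 54 genes called at ZT17. Both tests contain the same ZT17 difference from the same libraries, so this overlap is not independent support. Of the 54 genes, 2 were called at ZT5 and 0 at ZT11 or ZT23, and the sign was opposite to that at ZT17 for 41, 46 and 28 genes at ZT5, ZT11 and ZT23. The shares of calls and opposite signs over all genes tested are not given for those hours. Whether these counts are particular to the 54 genes was therefore not tested. Raet1e had log2 fold changes of -1.96, -1.36, 5.29 and 0.31 at ZT5, ZT11, ZT17 and ZT23, a difference of 6.29 ± 1.05 (adjusted p = 0.00192). Col8a1 had -0.24, -1.62, 1.90 and -0.09 at the same hours (2.55 ± 0.36, adjusted p = 3.95e-04). Golt1a, a Golgi transport gene, had -1.46, -2.13, 1.88 and -0.52 (3.25 ± 0.50, adjusted p = 8.41e-04), though its ZT17 difference itself missed the threshold (adjusted p = 0.0529). Hsd17b13 had -0.35, 2.02, -4.15 and 0.74 (-4.96 ± 0.65, adjusted p = 2.07e-04), and Nlrp1b had 0.26, 1.87, -4.46 and 0.03 (-5.18 ± 0.73, adjusted p = 3.81e-04). For Col8a1 and Raet1e, PBS ZT11 replicate 4 lay on the vancomycin ZT17 side as well, at 33.2 and 3.97 CPM. For Hsd17b13 and Nlrp1b it lay on the PBS side, at 38.0 and 5.41 CPM. The effect at ZT11 draws in part on the 3 PBS libraries described above. Without them the test called 46 genes, 43 of them among the 79, and the ZT17 comparison called 56 genes, 46 of them among the 54.

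**Figure D5:**
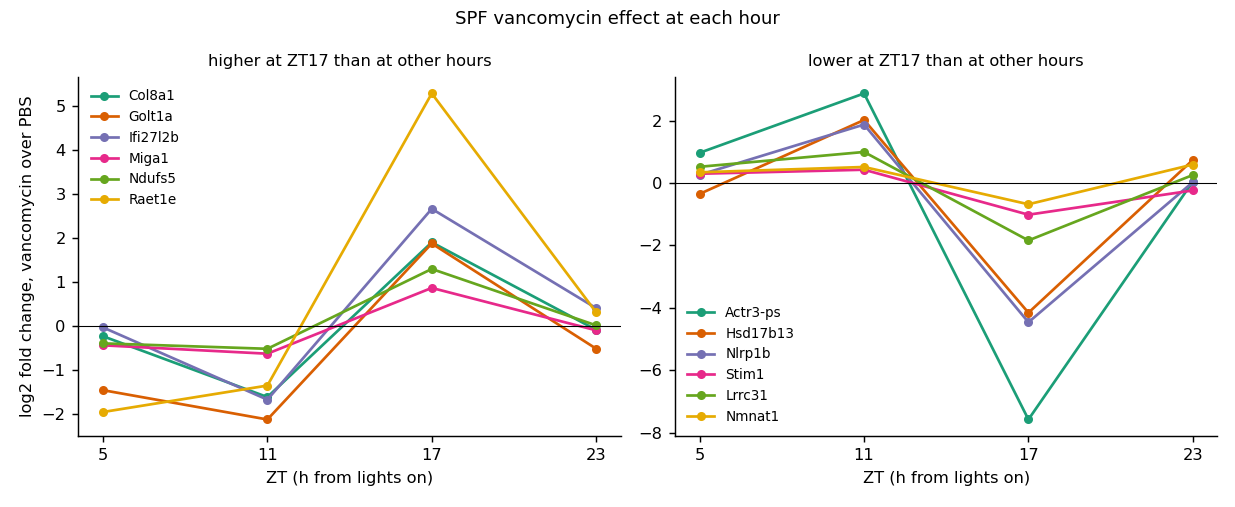
Lines join the log2 fold change of vancomycin over PBS at ZT5, ZT11, ZT17 and ZT23 for 6 genes in each direction of the test of ZT17 against the other hours, those of smallest p once predicted genes (Gm and Rik names) and genes with a mean under 1 CPM in both groups were left out. The genes on the left are highest and those on the right lowest at ZT17, and all 12 have the opposite sign at ZT11. Both features are favoured by the test that picked these genes.

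At ZT17 the unadjusted p was under 0.05 for 1465 of 16938 genes (8.65%) in SPF mice and for 757 of 16951 in GF mice, where 0 (0%) were called after adjustment by edgeR. The SPF difference at ZT17 departed from the GF difference for 10 of 16604 genes tested in both (0.0602%), 1 more positive (0.00602%) and 9 more negative (0.0542%). Of the 10, 9 were among the 52 called genes that could be tested, an overlap that again comes from the shared SPF ZT17 difference. Pgd was the positive one, with a log2 fold change of 0.82 in SPF and -0.46 in GF mice (difference 1.27 ± 0.23, adjusted p = 0.00496). Ldlrad3 had -1.46 in SPF and 0.29 in GF mice (-1.76 ± 0.30, adjusted p = 0.00292), and Morn2 had -1.39 in SPF and 0.27 in GF mice (-1.67 ± 0.36, adjusted p = 0.0357). Mptx2 had -10.35 in SPF and 1.00 in GF mice (-11.34 ± 2.06, adjusted p = 0.00504), and Itln1 had -8.47 in SPF and -0.96 in GF mice (-7.51 ± 1.54, adjusted p = 0.0302). Actr3-ps had -7.57 in SPF and -0.24 in GF mice (-7.34 ± 0.96, adjusted p = 8.73e-06). Vmn1r43, a vomeronasal receptor gene, had -2.49 in SPF and 0.48 in GF mice (-2.97 ± 0.61, adjusted p = 0.0307). Leaving out 1 library gave 4 to 9 genes, with 4 without SPF PBS replicate 1, 5 without SPF vancomycin replicate 1, 2 or 3, GF PBS replicate 2 or 4 or GF vancomycin replicate 3, and 6 without GF PBS or GF vancomycin replicate 1. Of 16 such fits, the difference was kept for Pgd, Ldlrad3 and Actr3-ps in 16, for Mptx2 in 15, for Itln1 in 6, for Vmn1r43 in 4 and for Morn2 in 3.

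Gene groups of metabolism, barrier and rhythm gave 0 called genes. Colonocyte markers (30 tested) had a median of -0.05, goblet and mucus genes (22 tested) 0.15, crypt stem cell genes (17 tested) -0.01, proliferation genes (30 tested) 0.07, fatty acid oxidation genes (28 tested) 0.03 and sodium and aldosterone genes (15 tested) -0.04. Of 25 cholesterol and lipid synthesis genes 6 were positive (median -0.22, with -0.11 without PBS replicate 1 and -0.33 without vancomycin replicate 3), and the sterol sensor gene Insig1 had 73.6, 74.6, 93.3 and 111 CPM in vancomycin libraries and 128, 117, 131 and 112 CPM in PBS libraries (-0.47, adjusted p = 0.351). All 6 tested gasdermins, pore-forming proteins of the epithelium, had negative values (median -0.65), and 4 had an unadjusted p under 0.05. The summed level of the 6 genes was 523 to 750 CPM in vancomycin libraries, 2209 CPM in PBS replicate 1 and 772 to 800 CPM in the other 3 PBS libraries. Across the alternatives the log2 fold change ran from -1.21 to -0.15 for Gsdmc2 and from -0.92 to -0.22 for Gsdmc4. Gsdmc3 had 112, 116, 86.8 and 88.4 CPM in vancomycin libraries and 266, 106, 148 and 136 CPM in PBS libraries (-0.70, adjusted p = 0.409). Of 24 immediate early genes 7 were positive (median -0.23, and -0.08 without PBS replicate 3), and Fos had 42.3, 55.7, 73.7 and 39.4 CPM in vancomycin libraries and 49.6, 175, 345 and 232 CPM in PBS libraries (-1.93 ± 0.48, adjusted p = 0.0906). Core clock genes (19 tested) had a median of -0.15. Among them the clock output repressor Nfil3 had 12.1, 15.5, 5.27 and 3.47 CPM in vancomycin libraries and 3.86, 3.46, 4.13 and 3.36 CPM in PBS libraries (1.3, adjusted p = 0.13), high in the follicle-rich libraries. The heme-binding clock repressor Nr1d1 had 107, 74.8, 136 and 120 CPM in vancomycin libraries and 139, 219, 164 and 195 CPM in PBS libraries (-0.71, adjusted p = 0.374). Among 16 bile acid and vitamin D genes (median -0.38), the ileal bile acid transporter Slc10a2 had 6.63, 6.53, 6.77 and 7.20 CPM in vancomycin libraries and 4.12, 24, 23.5 and 37.9 CPM in PBS libraries (-1.72, adjusted p = 0.265), and Vdr, the vitamin D receptor, had 203, 186, 254 and 260 CPM in vancomycin libraries and 248, 275, 428 and 350 CPM in PBS libraries (-0.53, adjusted p = 0.273).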

How the data were processed

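Poly(A) RNA of whole colon was read from 1 end on a NextSeq instrument, per the labels' protocols. Trim Galore 0.6.2, cutadapt 3.5, Salmon and build GRCm39 are named in the submitters' processing notes. The authors deposited 1 table per housing of values read here as unscaled estimated counts, since totals differ between libraries and the smallest common value is 0.97 to 1.01. The deposited names call them normalized. The sources used here do not give how this was done, which annotation served or whether strand was used.

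Estimated counts were rounded, and genes with at least 10 in at least 4 of 32 SPF libraries were tested with edgeR 4.0.16 (R 4.3.3, TMM, glmQLFit, glmQLFTest, 8 group means, two-sided, adjusted p under 0.05). Each SE was taken from the fold change and its F statistic. The GF difference was fitted over 64 libraries and 16604 genes. DESeq2 1.42.0 and limma 3.58.1 gave alternatives. Members and lists were chosen with earlier results of these data known. Named genes are the 15 of smallest p in each direction with a mean of at least 1 CPM and no predicted name, called and up to 4 leading list members, 6 per direction of each difference test and called neighbours. Adgra3, Ankrd50, Itih5, Bin3, Ubb, P4ha3, Pik3c2b, the copies and Mptx1, Ang4, Nr1d1, H2-Ab1 and Gsdmd as examples were chosen after their values were seen. Chromosomes, gene order and 31-base words came from GENCODE vM21 (GRCm38), with no coordinate carried between builds. Scripts were tested on simulated data. 1 called gene is not reported here.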

Additional observations from a re-analysis of the deposited data

Results flagged for a closer look

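For 51 genes, 102 groups of 4 libraries were checked for a library far from the other 3. Dixon's gap test at its 95% level marked 12. The genes were called genes of the naming rule and list members picked by hand with values of these data known. Chance marks about 1 in 20 groups, but with genes picked in this way the 12 cannot be compared with that share. In PBS replicate 4 the lone high values were those of Reg3b (182.7 CPM), Reg3g (156.4 CPM), Apoa1 (179.9 CPM), Fabp6 (48.53 CPM), Slc51a (41.43 CPM) and Cubn (16.85 CPM), genes for which the other 3 PBS libraries held at most 2.896 CPM. In PBS replicate 1 they were Itln1 (2574 CPM, the others at most 395.9), Ang4 (1239 CPM, the others at most 43.14) and, over a narrow range, Col8a1 (9.564 CPM, the others 7.534 to 7.647). Stim1 was lower in PBS replicate 2 (173.4 CPM, the others 194 to 195.1). Tmed5 was higher in vancomycin replicate 2 (50.93 CPM, the others 43.4 to 44.06), and Reg3b in vancomycin replicate 3 (6.857 CPM, the others at most 1.089).

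The ZT17 difference departed from that at the other SPF hours, by the contrast itself, for 79 genes. The 6 of smallest p under the naming rule were Col8a1 (2.55), Golt1a (3.247), Ifi27l2b (3.101), Miga1 (1.256), Ndufs5 (1.598) and Raet1e (6.293) on the higher side. On the lower side were Actr3-ps (-8.865), Hsd17b13 (-4.956), Nlrp1b (-5.179), Stim1 (-1.176), Lrrc31 (-2.429) and Nmnat1 (-1.163), as log2 differences. Of the 10 that departed from GF mice at ZT17, the same rule gave Pgd (1.274), Actr3-ps (-7.337), Ldlrad3 (-1.756), Mptx2 (-11.34), Itln1 (-7.51), Vmn1r43 (-2.969) and Morn2 (-1.667). Galm (-1.905) was among the rest.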

How the results depend on the processing

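The 54 genes called at ZT17 became 147 with DESeq2 (53 of the 54 among them), 34 with limma-voom (32 among them) and 17 without the follicle-rich vancomycin replicates 1 and 2, an alternative added after the data were seen. Counts were 43 to 76 with DESeq2 size factors (49), library totals (53), no filter (43), a filter at 50 (56), the 8 libraries alone (46), robust estimation (54), B cell (76), Hox (64) or smooth muscle (68) covariates, and without PBS ZT11 replicates 1 to 3 (56). Leaving out 1 library gave 21 to 43, with 21 without vancomycin replicate 1, 24 without vancomycin replicate 2 and 31 without PBS replicate 2. The test against other hours (79 genes) gave 190 with DESeq2, 46 without PBS ZT11 replicates 1 to 3 and 60 to 79 without 1 library. The test against GF mice (10 genes) gave 46 with DESeq2 and 4 to 9 without 1 library. Of 234 results for single genes, 0 turned sign where the gene was called with or without the alternative. Signs did turn for genes that passed in neither, such as Reg3b (-6.20 to 5.03), Slc51a (-3.49 to 1.32), Irf4 (-1.29 to 0.94), Cd22 (-0.77 to 1.52) and Fcmr (-0.42 to 1.33). Of those called, 7 of the 54 genes were called in all 22 alternatives (Actr3-ps, Hsd17b13, Galm, Nlrp1b, Stim1, Gm8797 and Zbtb38) and 17 without each of the 8 libraries in turn. The causes were not tested.

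The correlation of deviations between vancomycin and PBS libraries of 1 replicate number was 0.048, -0.007, -0.106 and 0.033 at ZT17 for numbers 1 to 4. It was 0.134, 0.531, 0.191 and -0.068 at ZT11, -0.037, 0.064, 0.295 and 0.240 at ZT23, and -0.259 to 0.029 at ZT5. Some numbers deviated together at ZT11 and ZT23, but not every pair did, and the labels do not say what a number shares, so the libraries were not treated as paired. With the replicate block the ZT17 test called 18 genes, 16 of them among the 54, the test against GF mice 2 and the test against other hours 62. Depth limits genes near 0, such as Raet1e, Insl6 and Khdrbs2, which rest on few reads in 1 group.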

Other observations

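Lists of other epithelial functions held 0 called genes of those tested. Their median log2 fold changes were 0.14 for endoplasmic reticulum stress and heat shock genes (26 of 31 positive), 0.17 for pattern recognition and NF-kB genes (29 of 38 positive), -0.10 for tight junction genes (5 of 20 positive), -0.09 for xenobiotic genes (18 of 45), -0.03 for short-chain fatty acid and anion transport genes (8 of 20), -0.01 for glucocorticoid targets (10 of 21), -0.05 for mitochondrial respiration genes (4 of 13), 0.17 for enteroendocrine genes (12 of 16) and 0.04 for tuft cell genes (7 of 11). Over all genes tested 49.89% were positive.

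Markers of the other cell types of the colon wall also gave 0 called genes. The medians were 0.50 for B cells and follicles (18 of 20 positive), 0.40 for T and natural killer cells (21 of 26), 0.37 for macrophages and dendritic cells (18 of 22), 0.05 for plasma cells (9 of 12), 0.02 for granulocytes and mast cells (4 of 6), -0.03 for smooth muscle (8 of 18), -0.14 for fibroblasts (7 of 20), 0.13 for endothelium (10 of 16), -0.01 for neurons and glia (10 of 23), 0.32 for erythroid cells (5 of 5) and -1.005 for fat and mesothelium (4 of 17). The distal Hox genes had a median of -0.40 (1 of 7 positive) and the proximal ones of -0.08 (2 of 8).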
